A study of Mus musculus with 15 samples.

Results

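The 38 genes described here code for the enzymes of glycolysis, the transporters that bring glucose in and lactate out, the proteins that pass pyruvate to the mitochondrion or hold it back, and a set of genes of the response to low oxygen. A gene was included where the array carried a probe set listed with its symbol alone, and the probe set with the highest mean over all 15 arrays stood for the gene. This held for 33 of the 38, out of 22180 genes with such a probe set on the array. Gpi1, Aldoa, Eno1, Mpc2 and Ankrd37 had no probe set of their own symbol alone and are not described. Of the 33, 32 passed a filter on dim signal and were tested, and 27 of these were above the 40th percentile of the array on all 15 arrays. The other 5 were above it on some arrays, Pfkm on 3, Adm on 7, Eno2 on 10, Egln3 on 13 and Slc2a3 on 14. Pfkm passed the filter through its 3 GFE arrays alone, so that it had to be higher in that group. Its values are given with no test, and it is left out of the counts of members below except where they are said to be over all 32. Pdk4, a kinase that switches off pyruvate dehydrogenase, was above it on no array, with values between 4.73 and 5.32, and was not tested.

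All values are log2 signals of mouse myeloid cells, 1 array per sample, in 5 groups of 3 arrays, all from mice of the C57Bl/6 strain. The MDSC group consisted of myeloid-derived suppressor cells, which were Ly6C+CD11b+ cells grown from bone marrow with the cytokines G-CSF, GM-CSF and IL-13. The GFE group consisted of CD11b+CD34+ spleen cells without lineage markers (CD4, CD8, Ly6G, B220 and Ter119) that came from mice given G-CSF and were then kept for 3 days in StemSpan medium with Flt3 ligand and SCF. The GFK group held the same kind of spleen cells, not cultured, from G-CSF-treated mice labelled iNOS knockout. The RB and GFW groups both held uncultured cells of this kind from G-CSF-treated wild-type mice, with identical labels and different codes in the sample titles. The labels do not give the mice's age, the dose of G-CSF, or whether replicates came from separate mice, so p values measure the spread between samples, which may be technical. The study's design also names monocytes and their marrow progenitors from mice without treatment, and these were not analysed here.

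Glycolysis splits glucose into pyruvate, which is either turned into lactate and exported or carried into the mitochondrion and oxidised by pyruvate dehydrogenase. Hypoxia-inducible factor, whose oxygen-sensitive subunit is encoded by Hif1a, binds a short core sequence and raises many glycolytic genes together with Pdk1, the transporters Slc2a1 and Slc16a3, and its own inhibitors of the Egln family. Myeloid cells are known for heavy use of glycolysis, neutrophils above all, and dividing cells draw on the same pathway to build biomass.

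The promoters of 6 members described at length below, chosen after their values were seen, are printed first, because the core sequence of hypoxia-inducible factor can be read in them directly. Each line holds the 300 bases from 250 before to 50 after a transcription start, in RefSeq's annotation of the build GRCm38.p6 and on the gene's own strand, 5′ to 3′. The windows are chr11:120948817-120949116 for Slc16a3, chr3:104638414-104638713 for Slc16a1, chr4:119108495-119108794 for Slc2a1, chr9:108991652-108991951 for Pfkfb4 and chr2:71872974-71873273 for Pdk1, all on the plus strand, and chr12:54203825-54204124 on the minus strand for Egln3. Capitals mark ACGTG or GCGTG on either strand, so that CACGT and CACGC are the same core read on the opposite strand. Hits that overlap, as in CACGTG, count on each strand.
Slc16a3: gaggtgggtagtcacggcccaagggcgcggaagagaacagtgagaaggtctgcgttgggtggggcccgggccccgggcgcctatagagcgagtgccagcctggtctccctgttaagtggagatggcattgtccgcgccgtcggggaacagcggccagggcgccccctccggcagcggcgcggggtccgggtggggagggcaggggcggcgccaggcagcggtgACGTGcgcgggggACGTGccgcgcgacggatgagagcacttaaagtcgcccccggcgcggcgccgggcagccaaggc
Slc16a1: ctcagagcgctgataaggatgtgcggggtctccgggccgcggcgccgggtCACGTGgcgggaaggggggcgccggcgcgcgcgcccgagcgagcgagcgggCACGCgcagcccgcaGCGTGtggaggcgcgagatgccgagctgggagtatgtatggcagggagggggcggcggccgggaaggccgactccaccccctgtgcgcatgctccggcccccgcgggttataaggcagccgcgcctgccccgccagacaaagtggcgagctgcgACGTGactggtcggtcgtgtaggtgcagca
Slc2a1: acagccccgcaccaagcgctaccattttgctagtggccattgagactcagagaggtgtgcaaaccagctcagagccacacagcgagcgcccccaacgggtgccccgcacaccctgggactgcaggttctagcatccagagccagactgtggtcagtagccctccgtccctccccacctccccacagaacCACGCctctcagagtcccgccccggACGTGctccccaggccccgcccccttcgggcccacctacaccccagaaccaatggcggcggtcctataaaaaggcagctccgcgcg
Pfkfb4: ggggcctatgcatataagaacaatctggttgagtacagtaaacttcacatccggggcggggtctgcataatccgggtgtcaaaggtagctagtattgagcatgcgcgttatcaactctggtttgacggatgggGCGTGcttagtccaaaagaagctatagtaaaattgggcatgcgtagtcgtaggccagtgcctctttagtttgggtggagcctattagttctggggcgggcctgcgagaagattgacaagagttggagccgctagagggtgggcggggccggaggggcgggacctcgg
Pdk1: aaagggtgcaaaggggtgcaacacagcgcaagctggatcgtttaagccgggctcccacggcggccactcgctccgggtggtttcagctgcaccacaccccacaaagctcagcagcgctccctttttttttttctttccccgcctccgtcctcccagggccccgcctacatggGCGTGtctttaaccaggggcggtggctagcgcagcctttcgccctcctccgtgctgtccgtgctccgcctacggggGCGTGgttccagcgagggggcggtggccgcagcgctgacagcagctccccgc
Egln3: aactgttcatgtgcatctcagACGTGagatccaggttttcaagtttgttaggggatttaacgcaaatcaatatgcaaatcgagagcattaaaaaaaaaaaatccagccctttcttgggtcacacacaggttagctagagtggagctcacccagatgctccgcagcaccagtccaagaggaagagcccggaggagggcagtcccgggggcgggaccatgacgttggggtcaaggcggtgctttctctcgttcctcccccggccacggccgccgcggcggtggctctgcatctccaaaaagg

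Slc16a3 had 2 copies of ACGTG within 27 bases upstream of its start, and Slc2a1 had 1 copy of each form within 61 bases. Slc16a1 carried 5 hits, of which 2 were the opposite strands of a CACGTG at 200 bases upstream. Pfkfb4 and Egln3 had 1 hit each, at 117 and 229 bases upstream, and Pdk1 had 2 copies of GCGTG, at 78 and 2 bases upstream. Pdk1 also has a second window, not printed, which held 0 hits. Some genes have several such windows, 53 over the 37 members that have any. Counting a gene once, 34 of 37 members held a hit in at least 1 window, 91.9%, against 62.3% of 11560 genes tested with a window and 46.7% of all 27025 genes. By window the shares were 79.2% of the members' windows and 43.8% of all. For ACGTG alone the shares by gene were 62.2% of members, 27.5% of genes tested and 21.8% of all genes. The members' windows also had more G and C, with a median of 62% against 59.67% in genes tested and 52.67% in all genes. A match is a description of the letters, and members were listed in part because they are known targets of this factor.

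The deposited values put most of the groups far apart in cell type markers, and the part of this in the comparisons below was not tested. A list of 15 neutrophil markers had a mean level per array of 9.19 to 9.23 in MDSC, 6.01 to 6.13 in GFE, 11.51 to 11.61 in GFK, 8.40 to 8.56 in RB and 11.56 to 11.59 in GFW. Ly6g, which codes for an antigen used to exclude cells in the sort, lay between 12.15 and 12.21 on GFW arrays, and between 12.03 and 12.12 on GFK arrays. Cd34, which codes for an antigen that the sort selected, lay between 11.25 and 11.31 in GFE, between 5.79 and 5.99 in RB and between 6.99 and 7.39 in GFW. Nos2, which codes for iNOS, was 8.84, 8.91 and 8.92 on the arrays labelled iNOS knockout, against 8.09, 8.32 and 8.43 on GFW arrays. It was thus higher there, by 0.61 ± 0.12 (adjusted p = 0.0125), against the label, and the call was lost in 2 of the 6 fits without 1 of these arrays, at up to 0.0587. Where its probe set lies relative to the deleted part of the gene is not known here. In these bulk samples, fewer cells of a type and less RNA per cell cannot be told apart. GFE, GFK and GFW share a prefix in the sample titles, whereas MDSC and RB each have another, so that for comparisons across prefixes the group and the set of arrays cannot be told apart.

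The members did not move as a block. Apart from Pfkm, all 31 tested members were called in at least 1 of the 6 comparisons, where a call is an adjusted p under 0.05 from limma over all 14822 genes tested. For every called member the arrays of the compared groups did not overlap, in each comparison. Remarks below that arrays did not overlap, or all lay on 1 side, therefore add nothing to the call. How often a gene was called in at least 1 comparison, or its arrays did not overlap, was not counted over all genes. In GFE minus GFW alone, 35.1% of all genes tested were called higher and 31.9% lower, so neither count is a trait shown for the members. The highest group mean fell in MDSC for 12 of the 32 members, in GFE for 10 with Pfkm among them, in GFK for 5, in RB for 2 and in GFW for 3. The lowest fell in MDSC for 5, in GFE for 8, in GFK for 4, in RB for 13 and in GFW for 2. The map of values by array shows these patterns, with the glucose and lactate transporters at the top and the hypoxia genes at the bottom.

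**Figure D1:**
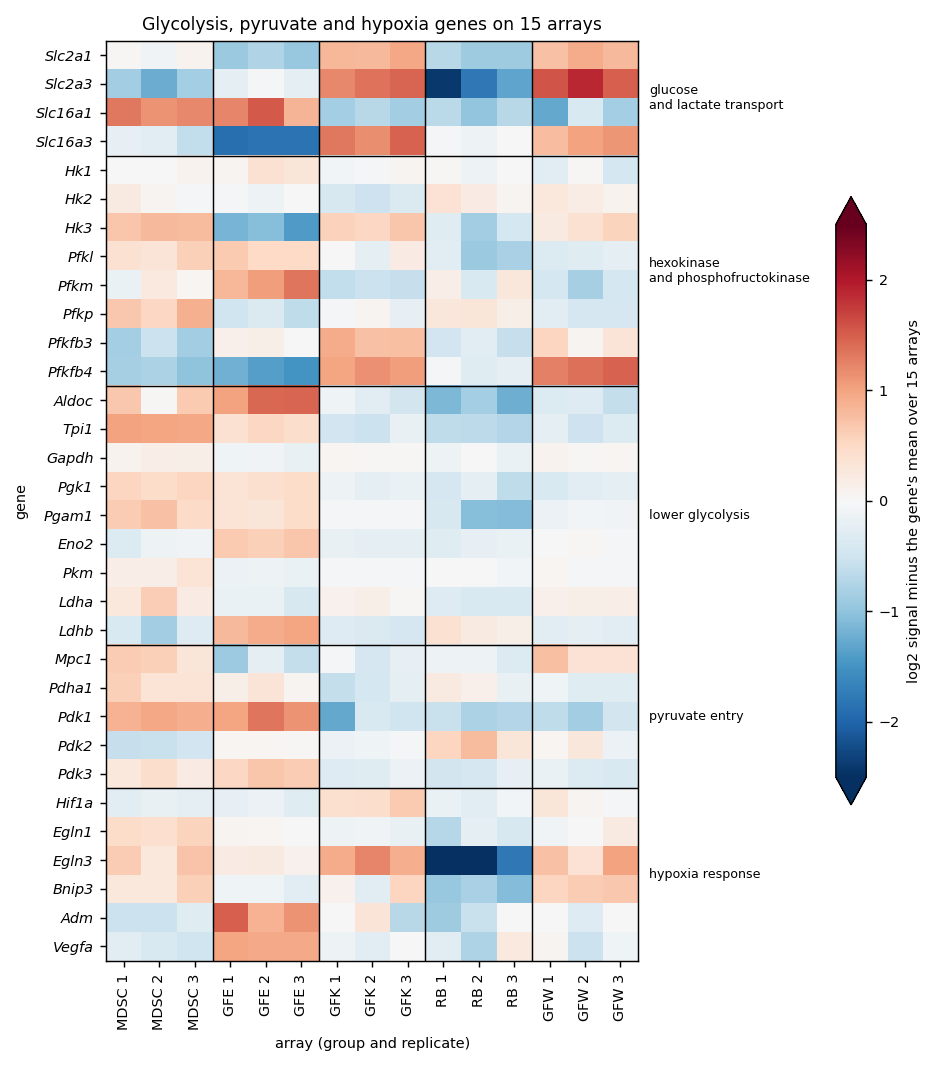
Map of the 32 tested genes (rows, grouped by role) on the 15 arrays (columns), where colour gives a gene's log2 signal minus its mean over the 15 arrays, red above and blue below, and values past the ends of the scale take the end colours. The transporter row Slc16a3 is bluest in GFE, the rows Slc2a3 and Egln3 are bluest in RB, and Slc16a1 and Pdk1 are red in MDSC and GFE only.

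Culture of the mobilised cells was compared first, GFE against GFW. The genes for glucose uptake and lactate export fell with the activator of glycolysis Pfkfb4, whereas Slc16a1, Pdk1, Aldoc and most enzymes of the lower part of glycolysis rose. Of 31 members, 14 were higher and 9 lower in GFE, which is 45.2% and 29.0% of them. Over all genes tested, 35.1% were higher and 31.9% lower. The members' median difference was -0.02 log2 and that of all genes was -0.06. After each array's median was subtracted, the median over all genes was 0.07, the share of calls that were higher was 63.8% in place of 52.3%, and over all 32 members 15 were higher and 7 lower in place of 15 and 9.

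Of the 4 transporters, 3 fell and 1 rose. Slc16a3, which codes for the lactate exporter MCT4, was 6.67, 6.71 and 6.72 on the GFE arrays, against 9.33, 9.57 and 9.66 on the GFW arrays. The GFE arrays lay far below every GFW array, a difference of -2.82 ± 0.13 log2 (SE; 7.07-fold lower; adjusted p = 2.33e-11). Slc16a1, which codes for MCT1, a carrier of lactate and pyruvate in both directions, went the other way, with 8.18, 8.50 and 7.83 in GFE, against 5.70, 6.59 and 6.13 in GFW. The groups did not overlap although the GFW arrays spread widely, and the difference was 2.03 ± 0.19 (4.09-fold higher; adjusted p = 1.52e-07).

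Slc2a1, which codes for the glucose transporter GLUT1, was 9.15, 9.34 and 9.13 in GFE, against 10.81, 11.01 and 10.90 in GFW. Slc2a3, which codes for the high-affinity glucose transporter GLUT3, was 7.32, 7.50 and 7.30 in GFE, against 9.12, 9.42 and 9.04 in GFW. Both were lower on every GFE array. The difference was -1.70 ± 0.10 for Slc2a1 (adjusted p = 7.94e-10) and -1.82 ± 0.21 for Slc2a3 (adjusted p = 1.19e-06).

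**Figure D2:**
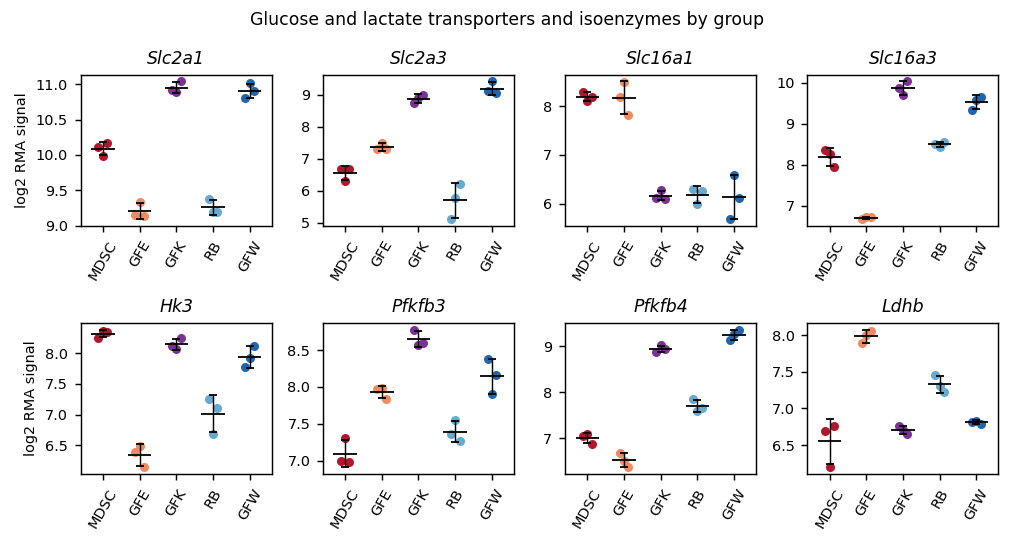
Log2 signal (vertical axis, own scale per panel) of 4 transporters and 4 isoenzymes in the 5 groups, with 1 point per array, a line at the mean and bars of 1 SD. Slc16a3 is lowest and Ldhb highest in GFE, Slc16a1 is high in MDSC and GFE, and Slc2a3 is highest in GFK and GFW.

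At the entry of glycolysis, 2 of 7 genes rose, 2 fell and 3 did not pass the test. Pfkfb4 makes fructose 2,6-bisphosphate, the main activator of phosphofructokinase, and also breaks it down. It was 6.68, 6.50 and 6.38 in GFE, against 9.14, 9.26 and 9.36 in GFW, a difference of -2.73 ± 0.11 (6.62-fold lower; adjusted p = 9.34e-12). Its relative Pfkfb3 differed by -0.21 ± 0.13, which did not pass (adjusted p = 0.166), although it passed at 0.0454 without GFW replicate 2. The hexokinases were split as well. Hk3, the hexokinase typical of myeloid cells, was 6.39, 6.49 and 6.14 in GFE, against 7.78, 7.93 and 8.12 in GFW, a difference of -1.60 ± 0.14 (adjusted p = 8.2e-08). Hk1, the ubiquitous hexokinase, rose by 0.48 ± 0.12 (adjusted p = 0.00319), and Hk2 differed by -0.23 ± 0.11 without passing. Among the phosphofructokinase subunits, Pfkm was 5.79, 6.0 and 6.29 in GFE, against 4.52, 4.12 and 4.51 in GFW. The GFW values ranked under the 40th percentile of the arrays, and the filter fixed this direction. Pfkl rose by 0.85 ± 0.16, and Pfkp, with a difference of -0.12, did not pass.

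In the lower part of glycolysis, 6 of 9 genes rose, 1 fell and 2 did not pass. Aldoc, an aldolase best known from brain, was 8.47, 8.89 and 8.91 in GFE, against 7.12, 7.13 and 6.86 in GFW, a rise of 1.72 ± 0.18 (3.29-fold; adjusted p = 3.9e-07). Tpi1, Pgk1, Pgam1 and Eno2, which code for enzymes between aldolase and pyruvate kinase, rose by 0.81, 0.70, 0.47 and 0.65. Gapdh and Pkm, at the middle and the end of this stretch, differed by -0.19 and -0.13, with 95% intervals of -0.37 to -0.00 and -0.32 to 0.06, and did not pass. Gapdh passed with the mean of its 3 probe sets (-0.39; adjusted p = 0.00158), with a filter at the 60th percentile (0.0461) and with a trend and robust prior (0.00099), and Pkm with that prior (0.0393). The lactate dehydrogenase genes moved apart. Ldhb, whose product favours the conversion of lactate to pyruvate, was 7.89, 8.01 and 8.06 in GFE, against 6.82, 6.84 and 6.79 in GFW, a rise of 1.17 ± 0.13 (adjusted p = 8.96e-07). Ldha, whose product favours lactate, was 6.04, 6.03 and 5.79 in GFE, against 6.31, 6.35 and 6.36 in GFW. It fell by 0.38 ± 0.11 (adjusted p = 0.00801), a call that ended at 0.0729 with arrays centred on their medians. The Ldha probe set had only mid-range signal, with group means from the 50.1 percentile (RB) to the 61.2 percentile (MDSC). The lowest for Gapdh was 99.8, in GFE. How well this probe set reports Ldha was not tested. A second Pgam1 probe set differed by -0.42, opposite to the one used, and the mean of both differed by 0.03 (adjusted p = 0.806). Several glycolytic genes, Gapdh and Pgam1 among them, have processed pseudogenes, so that part of a probe set's signal may not be the gene's own.

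At the entry of pyruvate into the mitochondrion, 3 of 5 genes rose and 1 fell. Pdk1, a kinase that switches off pyruvate dehydrogenase and a known target of hypoxia-inducible factor, was 8.76, 9.10 and 8.90 in GFE, against 7.14, 6.91 and 7.32 in GFW. Every GFE array was higher, by 1.80 ± 0.19 on average (3.48-fold; adjusted p = 4.62e-07). Pdk3, a kinase of the same family, rose by 0.90 ± 0.11 (adjusted p = 2.33e-06), and Pdk2 differed by -0.02 with a 95% interval of -0.29 to 0.25. Mpc1, a subunit of the carrier that takes pyruvate into mitochondria, was 8.55, 9.23 and 8.86 in GFE, against 10.20, 9.81 and 9.83 in GFW. It fell by 1.07 ± 0.17 (adjusted p = 4.27e-05), and a second, dimmer probe set differed by -0.74. Pdha1, the catalytic subunit that these kinases phosphorylate, rose by 0.42 ± 0.13 (adjusted p = 0.0112), and lost its call without GFE replicate 2 (adjusted p = 0.0531).

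The hypoxia genes showed no common direction, with 2 higher, 2 lower and 2 not called. Vegfa, a growth factor for blood vessels, was 9.02, 8.98 and 8.97 in GFE, against 8.10, 7.50 and 7.91 in GFW, a rise of 1.15 ± 0.20 (adjusted p = 0.000109). Adm, the precursor of the vasodilator adrenomedullin, was 7.05, 6.42 and 6.69 in GFE, against 5.56, 5.24 and 5.54 in GFW, a rise of at least 1.27 ± 0.25 (adjusted p = 0.000319). Both growth factor and peptide genes were higher on every GFE array. Bnip3, which marks mitochondria for removal under low oxygen, was 8.0, 8.0 and 7.86 in GFE, against 8.65, 8.75 and 8.79 in GFW, and fell by 0.77 ± 0.16. Hif1a itself was 9.17, 9.24 and 9.09 in GFE, against 9.70, 9.46 and 9.36 in GFW. It fell by 0.34 ± 0.11 (adjusted p = 0.0137), a call that ended with arrays centred on their medians (0.157), without GFE replicate 3 (0.0521) and without GFW replicate 1 (0.0767). The second, dimmer Hif1a probe set differed by -0.87, further in the same direction. The prolyl hydroxylase genes Egln1 and Egln3, whose products mark Hif1a protein for destruction when oxygen is present, differed by -0.01 and -0.51 without passing. Egln3 passed without GFW replicate 2 (adjusted p = 0.0244), with only the 6 arrays compared (0.0181), with the replicate block (0.0429) and with a trend and robust prior (0.0485).

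Cell type markers moved with these differences. All 15 neutrophil markers were lower in GFE, and 6 of them (Ly6g, Retnlg, Camp, Il1f9, Steap4 and Stfa1) ranked under the 40th percentile there. Of 12 progenitor markers 11 were higher, with a mean level per array of 9.75 to 9.81 in GFE and 6.95 to 7.01 in GFW. All 19 tested genes of mitosis and replication were higher, with a mean level of 9.21 to 9.28 in GFE and 7.17 to 7.31 in GFW. Macrophage markers, 10 of 12 lower, had a mean level of 6.70 to 6.91 in GFE and 8.02 to 8.24 in GFW. The part of these markers in the members' differences was not tested.

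**Figure D3:**
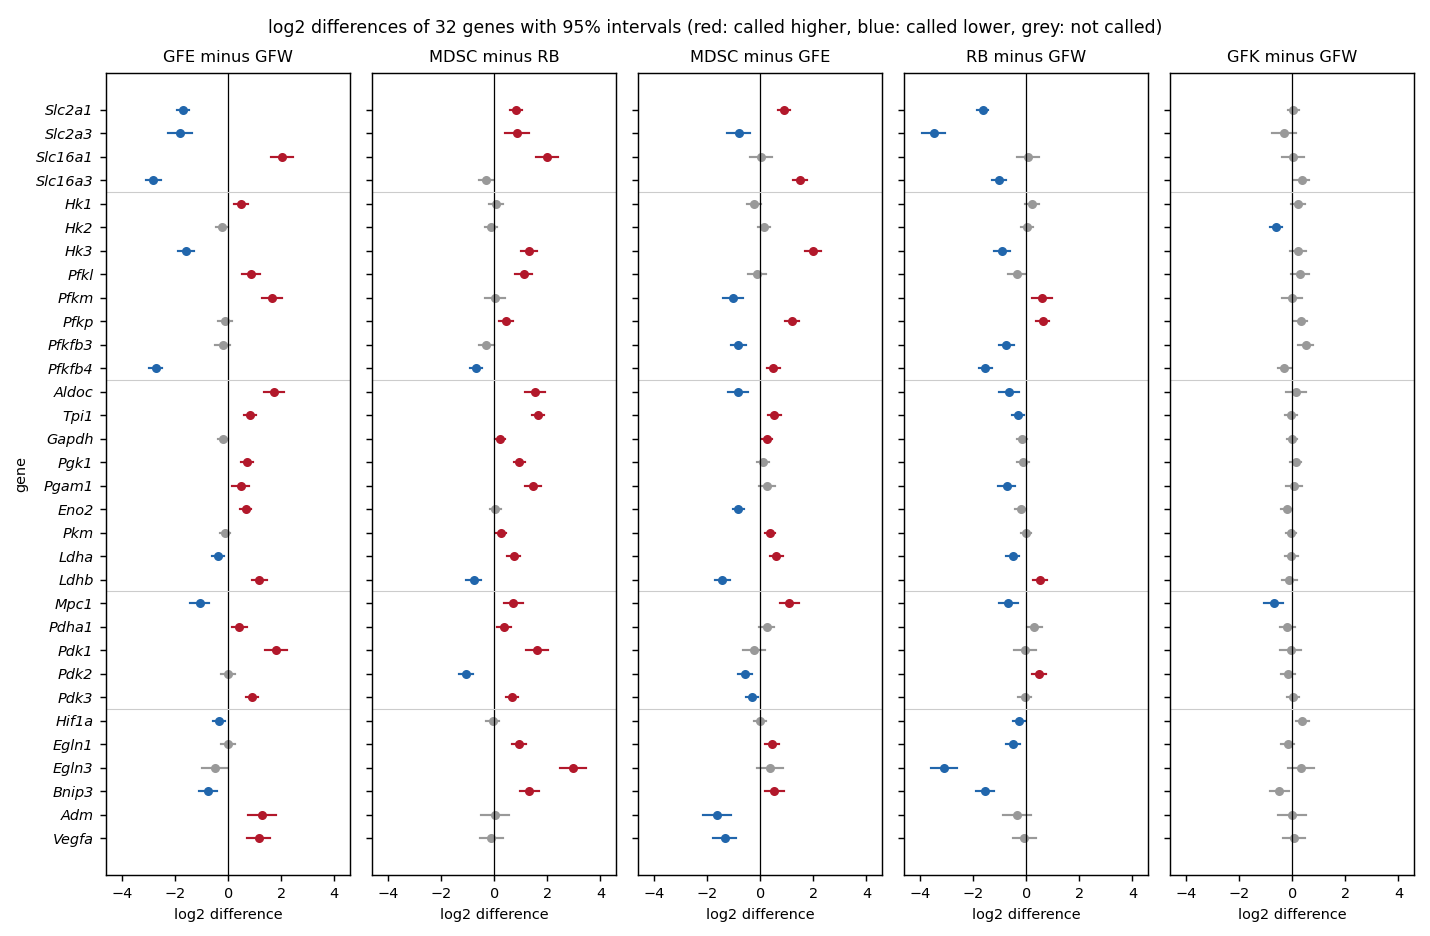
Log2 differences (horizontal axis) of the 32 tested genes in 5 comparisons, as points with 95% intervals, in red where called higher, in blue where called lower and in grey where not called. Pfkm is drawn too, but the filter fixed its direction against GFE, and its colour is not to be read as a test. In GFE minus GFW the transporter genes Slc2a1, Slc2a3 and Slc16a3 lie left of 0 and Slc16a1 right of it, in MDSC minus RB 20 genes lie to the right in red, and in GFK minus GFW 2 genes are coloured.

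The suppressor cells grown from bone marrow were compared with both sets of mobilised wild-type cells, as the study's design sets out. Comparisons that share a group use the same 3 arrays of it, and so are not independent of each other. This holds for GFW, MDSC and GFE, here and above and below. It also holds for RB, whose arrays serve both MDSC minus RB and RB minus GFW. Against RB, 20 of 31 members were higher in MDSC and 3 lower, 64.5% and 9.7%. Over all genes tested, 27.4% were higher and 20.7% lower. The members' median difference was 0.66 log2, and that of all genes was 0.04. Egln3, Slc16a1, Tpi1 and Pdk1 rose most, and Pdk2, Ldhb and Pfkfb4 were the members that fell. Against GFW the balance was 13 higher and 7 lower with a median of 0.07, where 32.3% of all genes were higher and 30.0% lower with a median of -0.08. Centring each array on its median gave an all-gene median of 0.04 and a share of higher calls of 63.2% in place of 51.8% for this comparison, with 16 higher and 6 lower over all 32 members in place of 14 and 7.

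Most enzymes from aldolase onward were higher in MDSC than in RB, with 7 of 9 genes higher and 1 lower. Tpi1, which interconverts the sugar phosphates made by aldolase, was 10.70, 10.69 and 10.66 in MDSC, against 9.06, 9.04 and 8.96 in RB and 9.46, 9.18 and 9.34 in GFW. The MDSC arrays exceeded all arrays of both sets, by 1.66 ± 0.11 over RB (3.16-fold; adjusted p = 4.22e-09) and by 1.35 ± 0.11 over GFW (adjusted p = 2.76e-08). Aldoc, Pgam1 and Pgk1 rose by 1.52, 1.47 and 0.95 over RB, and by 0.88, 0.72 and 0.81 over GFW. Gapdh and Pkm were higher than in RB by 0.23 and 0.24, but 5 of the 6 fits that left out 1 array of the compared groups lost the call for Gapdh and 3 of 6 lost it for Pkm, with adjusted p up to 0.102 and 0.142. Ldhb fell by 0.78 ± 0.13 against RB, with 6.69, 6.20 and 6.76 in MDSC, against 7.46, 7.31 and 7.23 in RB. Ldha rose by 0.73 ± 0.11 over RB, with 6.46, 6.81 and 6.40 in MDSC, against 5.86, 5.81 and 5.81 in RB. The pair of lactate dehydrogenase genes thus differed in opposite directions here as in GFE minus GFW, with the signs exchanged. The limit given above for the Ldha probe set holds here too.

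Transporters depended on the set of mobilised cells used for comparison. Slc16a1 was 8.29, 8.10 and 8.18 in MDSC, against 6.29, 5.99 and 6.27 in RB and 5.70, 6.59 and 6.13 in GFW, with differences of 2.0 ± 0.19 and 2.05 ± 0.19. It was the one transporter gene that was higher than in both sets. Slc2a1 was 10.11, 9.99 and 10.16 in MDSC, which lay above RB (9.38, 9.20 and 9.20) by 0.83 ± 0.10, and below GFW (10.81, 11.01 and 10.90), with a difference of -0.82 ± 0.10. Slc2a3 was 6.67, 6.31 and 6.70 in MDSC, against 5.12, 5.77 and 6.23 in RB and 9.12, 9.42 and 9.04 in GFW. It was higher than in RB by 0.85 ± 0.21 (adjusted p = 0.00292) and differed by -2.64 ± 0.21 from GFW (6.22-fold lower; adjusted p = 1.96e-08). Slc16a3 was 8.36, 8.27 and 7.93 in MDSC and 8.51, 8.44 and 8.56 in RB, a difference of -0.32 that did not pass (adjusted p = 0.052). Slc16a3 did pass with a filter at the 60th percentile (0.04), with a trend and robust prior (0.041) and without MDSC replicate 1 (0.0306). Its difference from GFW was -1.33 ± 0.13.

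Among the enzymes at the entry, Pfkp, the platelet-type phosphofructokinase subunit, was 9.20, 9.04 and 9.41 in MDSC, against 8.81, 8.82 and 8.68 in RB and 8.24, 8.10 and 8.11 in GFW. It was higher than in both sets, by 0.45 ± 0.12 and 1.07 ± 0.12. Pfkl rose by 1.10 over RB and 0.73 over GFW. Hk3 was 8.25, 8.37 and 8.35 in MDSC, against 7.26, 6.68 and 7.11 in RB, a rise of 1.30 ± 0.14. Its rise over GFW, 0.38 ± 0.14 (adjusted p = 0.0316), was lost in 4 of the 6 fits without 1 array, with adjusted p up to 0.121. The regulators of fructose 2,6-bisphosphate were lower. Pfkfb4 was 7.05, 7.10 and 6.88 in MDSC, against 7.85, 7.59 and 7.66 in RB and 9.14, 9.26 and 9.36 in GFW, with differences of -0.69 ± 0.11 and -2.24 ± 0.11. Pfkfb3 was 7.0, 7.31 and 6.98 in MDSC, against 8.37, 7.90 and 8.16 in GFW, a difference of -1.05 ± 0.13. Its difference of -0.30 from RB did not pass, although it passed without MDSC replicate 2 (adjusted p = 0.0321).

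The kinases of pyruvate dehydrogenase were split. Pdk1 was 8.64, 8.74 and 8.68 in MDSC, against 7.21, 6.98 and 7.03 in RB and 7.14, 6.91 and 7.32 in GFW, with rises of 1.61 ± 0.19 and 1.57 ± 0.19. The second Pdk1 probe set differed by 0.37 from RB and 1.09 from GFW, in the same direction. Pdk3 rose by 0.66 and 0.60. Pdk2 was 5.69, 5.71 and 5.79 in MDSC, against 6.80, 7.05 and 6.57 in RB and 6.31, 6.55 and 6.12 in GFW. It was lower than in both sets, with differences of -1.07 ± 0.13 and -0.60 ± 0.13. Mpc1 rose by 0.71 ± 0.17 over RB and differed by 0.02 from GFW, with a 95% interval of -0.34 to 0.38. A second, dimmer Mpc1 probe set differed by only 0.13 from RB and by -0.31 from GFW. Pdha1 rose by 0.66 ± 0.13 over GFW, and its rise of 0.37 over RB was lost without MDSC replicate 1 (adjusted p = 0.133) and without RB replicate 3 (0.145).

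Of the 6 hypoxia genes, 3 were higher in MDSC than in RB and 0 lower by limma, also at an unadjusted p under 0.05. Egln3 was 8.37, 8.0 and 8.46 in MDSC, against 5.16, 4.85 and 5.95 in RB, whose mean ranked under the 40th percentile. The rise was at least 2.95 ± 0.23 (at least 7.75-fold; adjusted p = 2.57e-08). Against GFW, with 8.47, 8.09 and 8.75, the Egln3 difference was -0.16 with a 95% interval of -0.65 to 0.32. Bnip3 was 8.38, 8.38 and 8.71 in MDSC, against 7.16, 7.31 and 7.03 in RB, a rise of 1.32 ± 0.16, and it differed by -0.24 from GFW without passing. Egln1 rose by 0.93 ± 0.12 over RB and 0.43 ± 0.12 over GFW. Vegfa differed by -0.11 from RB, with a 95% interval of -0.54 to 0.31, and Adm ranked under the 40th percentile in both groups, so that no difference is given. Hif1a was 9.13, 9.20 and 9.16 in MDSC, against 9.22, 9.12 and 9.33 in RB, and the difference of -0.06 had an interval of -0.30 to 0.18. Against GFW it fell by 0.34 ± 0.11, a call lost with centred arrays (adjusted p = 0.134) and without GFW replicate 1 (0.0782), and its second probe set differed by -0.65.

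**Figure D4:**
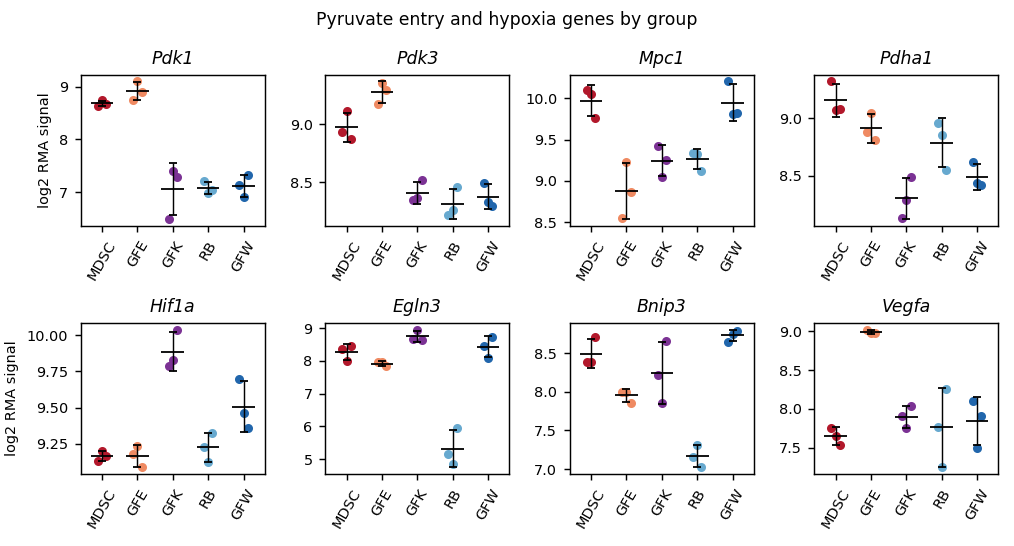
Log2 signal (vertical axis, own scale per panel) of 4 genes of pyruvate entry and 4 hypoxia genes in the 5 groups, with 1 point per array, a line at the mean and bars of 1 SD. Pdk1 is near 9 in MDSC and GFE and near 7 elsewhere, and Egln3 is near 5 in RB and near 8 in the other groups.

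Markers moved with these comparisons too. All 19 genes of mitosis and replication were higher in MDSC than in either set, with a mean level of 9.87 to 9.95 in MDSC, 7.14 to 7.53 in RB and 7.17 to 7.31 in GFW. Of 12 monocyte markers 10 were lower in MDSC than in RB, with a mean level of 7.59 to 7.72 in MDSC and 11.20 to 11.28 in RB. Of 15 neutrophil markers, 9 were higher and 4 lower against RB, and 3 were higher and 9 lower against GFW. Their part in the members' differences was not tested.

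GFE minus GFW and MDSC minus RB share no arrays and both set cultured cells against uncultured ones. Of the 14 members higher in GFE and the 20 higher in MDSC, 9 were higher in both, among them Slc16a1, Pdk1, Pdk3, Aldoc and Tpi1. They were 64.3% of the members higher in GFE, where 64.5% of all 31 members were higher in MDSC, and 45% of those higher in MDSC, where 45.2% of all were higher in GFE. The overlap was thus no larger than these shares give. Over all genes tested, 51.1% of those higher in GFE were higher in MDSC, where 27.4% of all genes were. Of those higher in MDSC, 65.5% were higher in GFE, where 35.1% of all genes were. For all genes the overlap was thus larger than these shares give, unlike for the members. Ldhb was higher in GFE than in GFW and lower in MDSC than in RB. Of the 9 members lower in GFE, 6 were higher in MDSC than in RB, Slc2a1, Slc2a3, Hk3, Ldha, Mpc1 and Bnip3, and Pfkfb4 was lower in both. Whether the differences themselves differ between these comparisons was not tested.

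The cultured groups were also set against each other, MDSC against GFE, where 12 members were higher and 9 lower of 31, against 16.6% and 18.9% of all genes. The members' median was 0.14, and that of all genes was -0.00. Hk3, Slc16a3, Pfkp and Mpc1 rose most in MDSC, by 1.98 ± 0.14, 1.49 ± 0.13, 1.19 ± 0.12 and 1.09 ± 0.17. Hk3 was 8.25, 8.37 and 8.35 in MDSC, against 6.39, 6.49 and 6.14 in GFE. Slc16a3 was 8.36, 8.27 and 7.93 in MDSC, against 6.67, 6.71 and 6.72 in GFE. Both genes, one at the start of glycolysis and the other at the exit of lactate, were higher on every MDSC array. Pfkp was 9.20, 9.04 and 9.41 in MDSC, against 8.02, 8.16 and 7.89 in GFE. Mpc1 was 10.10, 10.06 and 9.76 in MDSC, against 8.55, 9.23 and 8.86 in GFE, and its second probe set differed by only 0.42. The compared groups did not overlap for Pfkp and Mpc1 either, as for every called member. The members that were lowest in MDSC relative to GFE were Adm, Ldhb and Vegfa. Ldhb was 6.69, 6.20 and 6.76 in MDSC, against 7.89, 8.01 and 8.06 in GFE, a difference of -1.44 ± 0.13. Vegfa was 7.76, 7.65 and 7.53 in MDSC, against 9.02, 8.98 and 8.97 in GFE, a difference of -1.35 ± 0.20. All MDSC arrays lay below the GFE arrays for this pair of genes. Adm was 5.02, 5.03 and 5.25 in MDSC, against 7.05, 6.42 and 6.69 in GFE, lower by at least 3.07-fold. Aldoc, also called lower, was 8.14, 7.49 and 8.12 in MDSC, against 8.47, 8.89 and 8.91 in GFE. Pfkm was 4.78, 5.19 and 5.01 in MDSC, against 5.79, 6.0 and 6.29 in GFE, a direction that the filter fixed. Slc16a1 and Pgk1 differed by 0.02 and 0.11, with 95% intervals of -0.39 to 0.43 and -0.11 to 0.34. Calls for Gapdh (0.26), Bnip3 (0.54) and Pdk3 (-0.30) were each lost in at least 1 fit that left out an array, with adjusted p up to 0.0995, 0.0842 and 0.143. Neutrophil markers, 12 of 15, were higher in MDSC, and 11 of 12 progenitor markers were lower, and their part was not tested.

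The RB and GFW sets carry identical labels, yet 15 members were lower and 3 higher in RB of 31, against 26.5% and 25.8% of all genes. The members' median difference was -0.31 log2 and that of all genes was -0.06. Slc2a3 was 5.12, 5.77 and 6.23 in RB, against 9.12, 9.42 and 9.04 in GFW, a difference of -3.49 ± 0.21 (11.2-fold lower; adjusted p = 2.07e-09). Egln3 was 5.16, 4.85 and 5.95 in RB, against 8.47, 8.09 and 8.75 in GFW, lower by at least 8.67-fold (adjusted p = 2.03e-08). Slc2a1 was 9.38, 9.20 and 9.20 in RB, against 10.81, 11.01 and 10.90 in GFW, a difference of -1.65 ± 0.10 (adjusted p = 3.91e-09). No RB array reached a GFW array for any of the 3.

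Bnip3 was 7.16, 7.31 and 7.03 in RB, against 8.65, 8.75 and 8.79 in GFW, a difference of -1.56 ± 0.16. Pfkfb4, Slc16a3 and Hk3 were also lower in RB, with differences of -1.55, -1.02 and -0.92. The members that were higher in RB were Pfkp, Ldhb and Pdk2. Pfkp was 8.81, 8.82 and 8.68 in RB, against 8.24, 8.10 and 8.11 in GFW, a rise of 0.62 ± 0.12. Ldhb was 7.46, 7.31 and 7.23 in RB, against 6.82, 6.84 and 6.79 in GFW, a rise of 0.51 ± 0.13. Pdk2 rose by 0.48 ± 0.13. Pfkm was 5.11, 4.58 and 5.23 in RB, against 4.52, 4.12 and 4.51 in GFW, under the 40th percentile in both groups, so that no difference is given. Hif1a was 9.22, 9.12 and 9.33 in RB, against 9.70, 9.46 and 9.36 in GFW. Its fall of 0.28 (adjusted p = 0.0432) was lost in 4 of 6 fits without 1 array, at up to 0.194, and with centred arrays at 0.144. Tpi1 fell by 0.31 ± 0.11, and lost the call in 3 of 6 such fits, at up to 0.11.

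Slc16a1, Pdk1, Pdk3, Hk2 and Pkm differed between RB and GFW by 0.05, -0.05, -0.06, 0.03 and -0.01, and none passed. For Pdk1 the difference of -0.05 became 0.33 (adjusted p = 0.0254) when all its probe sets were averaged, since the second probe set differed by 0.71. Monocyte markers, 11 of 12, were higher in RB, with a mean level of 11.20 to 11.28 in RB and 7.97 to 8.06 in GFW. Neutrophil markers, 13 of 15, were lower in RB, with 8.40 to 8.56 in RB and 11.56 to 11.59 in GFW. The part of these markers in the members' differences was not tested, and the set of arrays cannot be told apart from the cells.

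Arrays labelled iNOS knockout were compared with GFW. Over all 32 members, 0 were higher and 2 lower by limma, or 0% and 6.25%, where 1.30% of all genes were higher and 0.317% lower at the same adjusted threshold. At an unadjusted p under 0.05, 4 members were higher and 5 lower. The share of all genes at that looser threshold was not counted, so these members cannot be set against it. The members' median was -0.01 and so was that of all genes. Hk2, an inducible hexokinase bound to mitochondria, was 7.45, 7.33 and 7.49 on the arrays labelled knockout, against 8.10, 8.04 and 7.93 on GFW arrays. No array overlapped, and the difference was -0.60 ± 0.11 (1.52-fold lower; adjusted p = 0.00734), with 0.0754 when only these 6 arrays were fitted. Mpc1 was 9.43, 9.05 and 9.26 on the arrays labelled knockout, against 10.20, 9.81 and 9.83 in GFW, a difference of -0.70 ± 0.17 (adjusted p = 0.0492). This call was lost in all 6 fits that left out 1 of these arrays, with adjusted p of 0.0603 to 0.169. The second Mpc1 probe set differed by -0.21.

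Pfkfb3, with 8.78, 8.57 and 8.60 on the arrays labelled knockout, against 8.37, 7.90 and 8.16 on GFW arrays, differed by 0.51 ± 0.13 and did not pass (adjusted p = 0.0775), but passed at 0.0447 without GFW replicate 1. Hif1a was 9.79, 9.83 and 10.04 on the arrays labelled knockout, against 9.70, 9.46 and 9.36 in GFW, a difference of 0.38 ± 0.11 that did not pass (adjusted p = 0.12). Bnip3 ranged from 7.85 to 8.65 there, wider than in any other group, and its difference of -0.49 passed at 0.0311 only without GFK replicate 3. Slc2a1 and Slc16a1 differed by 0.04 and 0.03, with 95% intervals of -0.18 to 0.26 and -0.38 to 0.44. Of 15 neutrophil markers limma called 0, and 0 were past an unadjusted p of 0.05. Of 12 monocyte markers 4 were higher, of 12 macrophage markers 3, and 5 of 8 tested B and plasma cell markers were higher, with a mean level of 7.91 to 7.96 on the arrays labelled knockout and 7.06 to 7.23 in GFW. The part of these markers in the members' differences was not tested.

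Other genes of glucose and pyruvate use were counted from further lists, beside the members. All genes tested were 35.1% higher and 31.9% lower in GFE minus GFW (median -0.06), 27.4% and 20.7% in MDSC minus RB (0.04), 32.3% and 30.0% in MDSC minus GFW (-0.08) and 25.8% and 26.5% in RB minus GFW (-0.06), against which the lists' counts are to be read. Of 20 tested genes of the tricarboxylic acid cycle, which oxidises what pyruvate dehydrogenase delivers, 15 were higher and 1 lower in GFE than in GFW (median 0.69). In MDSC, 14 were higher and 1 lower than in RB (median 0.56), and 19 were higher and 0 lower than in GFW (median 0.93). In RB, 14 were higher and 0 lower than in GFW (median 0.65). Neither 0 changed at an unadjusted p under 0.05. Idh2, a mitochondrial isocitrate dehydrogenase, rose by 2.68 ± 0.16 in GFE and by 1.59 ± 0.16 in MDSC over RB, and Suclg2, a subunit of succinyl-CoA synthetase, by 2.93 ± 0.13 and 1.27 ± 0.13. Idh3a, the catalytic subunit of a further isocitrate dehydrogenase, rose by at least 2.52 ± 0.24 and by 2.0 ± 0.24.

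A list of 13 other enzymes around pyruvate dehydrogenase and the making of oxaloacetate or phosphoenolpyruvate had 10 higher and 1 lower in GFE than in GFW (median 1.03) and 8 higher and 1 lower in MDSC than in RB (median 0.56). Me1, the cytosolic malic enzyme, rose by at least 3.58 ± 0.22 in GFE and by at least 1.46 ± 0.22 in MDSC over RB. Pck2, which makes phosphoenolpyruvate in mitochondria, rose by 2.55 ± 0.14 in GFE, and Pdp2, a phosphatase that reverses the action of the Pdk kinases, by 1.62 ± 0.19.

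Other genes of glycolysis and glucose supply had shares near those of all genes, with 7 higher and 7 lower of 22 in GFE against GFW, 31.8% each way (median -0.05), and 6 higher and 5 lower in MDSC against RB, 27.3% and 22.7% (median 0.16). Slc2a6, a further member of the glucose transporter family, fell by 2.26 ± 0.11 in GFE. Slc16a7, which codes for the pyruvate carrier MCT2, rose by 1.23 ± 0.19 in GFE over GFW and by 2.05 ± 0.19 in RB over GFW. The pentose phosphate list of 10 genes had 4 higher and 3 lower in GFE, led by Prps2 at 1.87 ± 0.18, and 5 higher and 4 lower in MDSC against RB, led by Prps1 at 1.55 ± 0.16, both of which make the sugar phosphate for nucleotides. Of 14 tested glycogen genes, 8 were higher and 4 lower in GFE, where Pygl, the liver-type glycogen phosphorylase, fell by 3.09 ± 0.13 and Gbe1, the branching enzyme, rose by 1.87 ± 0.15.

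**Figure D5:**
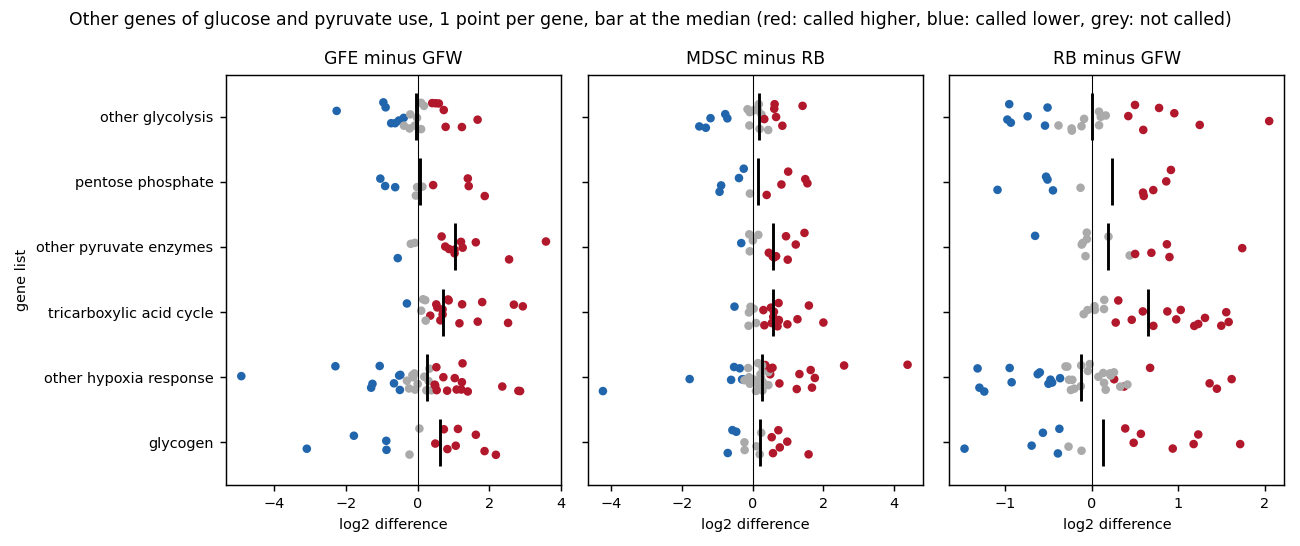
Log2 differences (horizontal axis, own scale per panel) of genes on 6 further lists in 3 comparisons, 1 point per gene, red where called higher, blue where called lower and grey where not called, with a bar at each list's median. Nearly all coloured points of the tricarboxylic acid cycle lie right of 0 in each panel, and those of other glycolysis lie on both sides.

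Among 36 other genes of the hypoxia response, 15 were higher and 9 lower in GFE (median 0.27), 12 higher and 7 lower in MDSC against RB (median 0.25), and 6 higher and 11 lower in RB against GFW (median -0.13). Tfrc, the transferrin receptor, rose by 2.81 ± 0.17 in GFE and by 4.38 ± 0.17 in MDSC over RB. Fos, a stress-inducible transcription factor gene, fell by 4.92 ± 0.11 in GFE and by 4.24 ± 0.11 in MDSC against RB. On the arrays labelled knockout, Hilpda, a lipid droplet protein gene induced by low oxygen, and Hmox1, which codes for heme oxygenase, rose by 0.99 ± 0.11 and 0.54 ± 0.12. Among 21 regulators of the pathway, 8 were higher and 10 lower in GFE (median -0.35) and 5 were higher and 5 lower in MDSC against RB (median 0.00). Myc, a transcription factor that raises glycolytic genes in dividing cells, rose by 2.82 ± 0.12 in GFE and by 2.23 ± 0.12 in MDSC over RB. Txnip, which restrains glucose uptake, fell by 2.35 ± 0.10 in GFE and by 1.71 ± 0.10 in RB against GFW.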

How the data were processed

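RNA of 15 samples in 5 groups of 3 was labelled as biotinylated cRNA from 6 ug of total RNA and hybridised to 1 single-colour array each, per the labels. The deposited values are on a log2 scale, made by the authors with RMA in the package oligo, per the submitters' processing notes. RMA subtracts background, forces a common distribution on the arrays and combines probes into probe sets, so that differences between groups in total RNA are removed. Tool versions and the build of the probe annotation were not given in the sources used here. Values ran from 2.21 to 14.07 over 41345 probe sets, and no pair of arrays was identical.

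Of the probe sets, 23521 carried 1 gene symbol in the platform annotation, 1814 several and 16010 none, and the first kind was used, for 22180 genes. For 1082 genes with more than 1 probe set, the brightest by its mean over the 15 arrays stood for the gene. Testing required a value above the 40th percentile of the array (5.34 to 5.58) on at least 3 arrays, which kept 14822. If the lower group averaged under that percentile, the difference is given as at least its size, because signal near background understates it, and none is given if both groups did. The precision is limited by the number of arrays, 3 a group.

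The fit used limma 3.58.1 (R 4.3.3) on all 15 arrays, with lmFit, eBayes and 1 mean for each group. It had 10 residual degrees of freedom and a prior of 5.33. P values are 2-sided and Benjamini-Hochberg adjusted over all genes tested, with calls under 0.05. Errors after ± are standard errors of the difference, and intervals are 95%. Lists are described by counts and medians, to be read against those of all genes, with no list test. Values on every array are given for the 4 called members with the largest differences in each direction and comparison. These 4 were taken among those whose groups do not overlap, which held for every called member. Pfkm ranked among the 4 in some comparisons, and its values are given with no test. Such values are also given for Hif1a and Slc2a1, and for the most different members of an enzyme family. Of other lists up to 3 called genes with the largest differences are named. Cd34 and Ly6g are given because the sort used their antigens, and Nos2 because a group is labelled by its loss. Members and lists were chosen with earlier results of these data known.

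Same-numbered samples of different groups correlated by -0.09 to 0.04 in their deviations from group means, so the numbers were not taken as pairs. Promoter windows were matched by symbol for 37 of the 38 members. Alternatives were a different filter, no filter, arrays centred on their medians, the mean of all probe sets, only the 6 arrays compared, a trend with a robust prior, the replicate number as a block, and each array left out in turn.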

Additional observations from a re-analysis of the deposited data

How the results depend on the processing

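Counts of members and of all genes stayed within 1.5 times their values in every comparison except GFK minus GFW, under every alternative and with each array left out. In GFK minus GFW, 239 genes were called, with 74 when only the 6 arrays were fitted and 133 to 183 when an array was left out, the lowest without GFK replicate 3. Genes called higher numbered 192, with 72 on the 6 arrays and 102 to 150 with an array left out. Genes called lower numbered 47, with 29 after centring, 30 with no filter, 2 on the 6 arrays, 79 with a trend and robust prior, and 27 to 42 with an array left out. Of the 32 members, 2 were called, both lower; 1 was called after centring, with the mean of all probe sets, with no filter and with the replicate block, and 0 on the 6 arrays, for members called and for members called lower alike. Leaving out an array gave 1 to 2 members called, 0 to 1 higher and 1 to 2 lower, and a trend and robust prior gave 1 member higher, Hif1a. The alternatives change the arrays, the values, the probe sets, the genes adjusted over or the model, and why the counts moved was not tested.

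The reversal among members was Pdk1 in RB minus GFW, 0.33 (adjusted p = 0.0254) with the mean of all probe sets in place of -0.05, because its second probe set differs the other way. With the replicate block, 184 of the values of members in the 6 comparisons kept direction and call, 6 lost a call and 2 gained one; the sample numbers were no pairing by the check on correlations, and Mpc1 in GFK minus GFW (adjusted p = 0.0637) was among the 6. After centring arrays on their medians 183 kept both, 7 lost a call and 2 gained one. Over all fits that left out 1 array, 1094 kept both, 47 lost a call and 11 gained one.

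Of the called members, 22 of 24 in GFE minus GFW, 1 of 2 in GFK minus GFW, 20 of 23 in MDSC minus RB, 18 of 21 in MDSC minus GFW, 19 of 22 in MDSC minus GFE and 16 of 19 in RB minus GFW were called in every fit with an array left out. Signal near background limits Pfkm, Adm, Eno2 and Egln3 in the groups where they were dim, and a difference from a brighter group there is a lower limit. Pfkm, whose direction against GFE the filter fixed, is among the members counted here. The share of calls kept in every such fit was not counted over all genes, so this stability is not shown to be particular to the members.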
